A study of Mus musculus with 6 samples.

Results

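The genes described here are 32 genes of cholesterol and fatty acid synthesis in BaF3, a mouse cell line that needs interleukin-3 to grow and that the labels place in the pro-B lineage. They were taken by symbol: 6 enzymes of the mevalonate arm, 11 of the squalene and sterol arm, 5 genes that control the pathway, 2 of sterol transport and acetoacetyl-CoA supply, 3 of fatty acid synthesis and 5 of fatty acid desaturation and elongation. All 32 were found in both deposited tables, which share 16799 genes, and all 32 were among the 11050 genes tested. Scd1 was tested only because 2 libraries, ICN and CTdel of replicate 2, reached an FPKM of 1 (FPKM, fragments scaled by transcript length and by library size).

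The study sequenced messenger RNA from 6 libraries in 3 groups of 2. The con cells received the plasmid pmax-Clover, which encodes a green fluorescent protein. The ICN cells received pmax-Clover-ICN, with the intracellular part of Notch1, the piece that an activated Notch receptor releases into the nucleus. The CTdel cells received pmax-Clover-CTdel, which the labels also describe as a mutant of ICN; what is deleted is not given in the sources used here. All 3 groups were grown in RPMI with 10% serum and 2 ng/mL mouse interleukin-3, given plasmid by nucleofection and sorted 24 h later, and what the sort selected is not given. No source says that the replicates were separate cultures, so each p-value measures the spread between these libraries, which may be technical. The groups also differ in the plasmid each received, so an effect of the encoded protein and one of the plasmid itself cannot be told apart, and in bulk RNA fewer cells of a type and less RNA per cell cannot be told apart. ICN and CTdel are compared with the same con libraries.

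Animal cells build cholesterol from acetyl-CoA. The mevalonate arm makes isoprenoid units, which squalene synthase joins to squalene, and the sterol arm oxidises, closes and trims squalene to cholesterol. Fatty acid synthesis starts from the same acetyl-CoA, through acetyl-CoA carboxylase and fatty acid synthase, and desaturases and elongases finish the chains. The genes of both routes are known targets of the SREBP transcription factors, which the escort protein SCAP carries from the endoplasmic reticulum to the Golgi for cleavage and which INSIG proteins hold back when sterols are plentiful. Dividing lymphoid and myeloid cells use the pathway to make membrane. Serum in the medium also brings cholesterol and fatty acids.

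Promoters of 4 members are shown because they carry the letters through which the family is known to be controlled: the sterol regulatory element bound by SREBP, the CCAAT box bound by NF-Y, and the E-box. Each run is the 250 bases before an annotated start of the gene, 5′ to 3′ on the gene's strand, from RefSeq on GRCm38.p6. For Fasn that start (120824547) lies inside the gene's span, which begins at 120825166 on the minus strand. The bases before that outer Fasn start were neither shown nor searched. For Mvk the start used is 114444269, and the span begins at 114444264. Capitals mark TCACNCCAC, CACGTG or CCAAT on either strand (CCAAT on the other strand reads ATTGG). In the bases searched, Hmgcs1 is the only one of the 25 members with the SREBP letters. Mvk has 5 CCAAT boxes, Fasn has 3 with a pair that overlaps, and Insig1 has both a CCAAT box and an E-box.
Hmgcs1 (chr13:119690101-119690350, + strand): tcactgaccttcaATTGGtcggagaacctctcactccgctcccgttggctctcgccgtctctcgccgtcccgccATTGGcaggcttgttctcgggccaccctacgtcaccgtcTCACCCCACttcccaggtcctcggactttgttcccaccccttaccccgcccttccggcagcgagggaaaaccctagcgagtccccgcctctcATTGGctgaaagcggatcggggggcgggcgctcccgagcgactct
Mvk (chr5:114444019-114444268, + strand): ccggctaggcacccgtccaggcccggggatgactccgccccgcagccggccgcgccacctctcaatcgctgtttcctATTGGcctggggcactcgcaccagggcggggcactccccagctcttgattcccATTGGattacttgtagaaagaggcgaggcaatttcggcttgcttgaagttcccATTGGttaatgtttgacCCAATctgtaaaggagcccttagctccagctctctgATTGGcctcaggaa
Fasn (chr11:120824548-120824797, − strand): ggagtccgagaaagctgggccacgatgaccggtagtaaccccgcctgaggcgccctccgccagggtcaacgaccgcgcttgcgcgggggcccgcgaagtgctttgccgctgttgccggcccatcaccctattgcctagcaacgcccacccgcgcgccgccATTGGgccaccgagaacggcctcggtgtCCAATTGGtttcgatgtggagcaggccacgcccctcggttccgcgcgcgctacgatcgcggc
Insig1 (chr5:28071162-28071411, + strand): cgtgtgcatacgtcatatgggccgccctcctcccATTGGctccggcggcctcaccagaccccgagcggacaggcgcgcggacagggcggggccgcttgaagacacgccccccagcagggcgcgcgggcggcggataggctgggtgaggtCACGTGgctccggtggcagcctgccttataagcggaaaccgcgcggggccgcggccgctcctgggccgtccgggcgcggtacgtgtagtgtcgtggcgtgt

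RefSeq windows of 300 bases, from 250 before to 50 after the start, were held for 25 of the 32 members, as 33 windows, since some members have more than 1 start. CCAAT lay in 21 of the 33 member windows (63.6%), from 20 members, against 37.4% of all 32851 windows searched. CACGTG lay in 6 (18.2%), those of Dhcr7, Hsd17b7, Insig1, Sc5d and Scap, against 7.15% of all. The Scap windows (110333038-110333337 and 110333106-110333405) overlap and hold the same CACGTG, which is thus counted in each. TCACNCCAC lay in 1 (3.03%), 137 bases before the start of Hmgcs1, against 1.24% of all. GTGGGAA, the letters known for the Notch partner RBPJ, lay in 3 (9.09%), those of Hmgcs1, Nsdhl and Sc5d, against 6.38% of all; in Hmgcs1 the match begins 107 bases before the start and is not in capitals. Both strands were searched for each motif. These are matches of letters, not sites of binding.

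The gene carried by the plasmids was checked first. Notch1 measured 0.89 and 1.72 FPKM in con, 190 and 888 in ICN and 84.9 and 25.4 in CTdel, in replicates 1 and 2. Every ICN and CTdel library was above both con libraries, and ICN replicate 2 was the highest of the 6. Notch1 rose by 5.95 on the log2(FPKM + 1) scale in both forms together (adjusted p = 0.0336, limma with Benjamini-Hochberg adjustment over all genes tested), and was 7.51 higher in ICN (adjusted p = 0.103) and 4.39 higher in CTdel (adjusted p = 0.0947). Its call for both forms was lost without con replicate 1 (adjusted p = 0.0701) or con replicate 2 (0.078), and with no filter on low values (0.215). In ICN it passed without ICN replicate 1, ICN replicate 2 or either CTdel library (adjusted p of at most 0.000762), and in CTdel without any 1 of those 4 libraries (at most 0.0372). The values do not separate transcript of the plasmid from that of the cell's own gene.

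FPKM summed to between 489693 and 507894 a library, and read totals are unknown; the depth of each library was between 0.962 and 1.08 times that of con replicate 1, as read from the smallest values of small RNA genes. Of 10 pro-B markers, Cd79a and Cd79b alone reached an FPKM of 1 in any library. Ebf1, Vpreb1, Igll1, Il7r and Rag1 stayed under 1 in all 6 libraries, as did Pax5 in the 3 of replicate 2, the only table where a row for it was found, and no row was found for Dntt, so the labelled lineage was not borne out by its defining markers. The pro-B markers summed to 3.8 and 5.5 FPKM in con, 8.1 and 7.2 in ICN and 9.4 and 17.9 in CTdel. Cd79a and Cd79b, the 2 tested, had positive fitted changes in both forms, and 0 passed. Of 8 mast cell and basophil markers 3 reached 1, as did 6 of 8 myeloid markers. The myeloid markers summed to 102 and 76.3 FPKM in con, 311 and 193 in ICN and 565 and 599 in CTdel, and the mast cell and basophil markers to 265 and 199, 117 and 87.8, and 86.8 and 64.5. The erythroid and megakaryocyte markers, of which 5 of 7 reached 1, summed to 325 and 780.2 FPKM in con, 273 and 462.5 in ICN and 223.5 and 369.9 in CTdel. All 5 tested had negative fitted changes in both forms and 0 passed. In limma, 4 had an unadjusted p under 0.05 in ICN, where 15.0% of all genes tested did, and 3 in CTdel, where 11.8% did. For CTdel against con, 3 of 6 myeloid markers tested passed as higher (limma, adjusted p under 0.05), with 5 changes positive and 1 negative. Of 3 mast cell and basophil markers tested there, 2 passed as lower and 1 had a positive change. Of all genes tested, 1.41% passed in that comparison. For ICN against con, 0 markers of either list passed. Adipocyte and hepatocyte markers, of tissues rich in these pathways, summed to between 0.2 and 5.6. The part of these shifts in the results below was not tested.

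The 32 genes took between 0.184% and 0.300% of the summed FPKM of a library. Their own sum was 1082 FPKM in con replicate 1 and 1466 in con replicate 2, 1177 and 902 in ICN, and 1138 and 1479 in CTdel. ICN replicate 2 thus had the lowest sum of the 6, while ICN replicate 1 lay above the con library of its own table.

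In con cells the levels per length spanned from 0.73 to 113 FPKM. Fdps, which makes farnesyl diphosphate, had the highest mean (113 ± 24.6 FPKM, SD, n = 2 here and below). It was followed by the fatty acid desaturases Fads2 (101 ± 59.6) and Fads1 (96.7 ± 28.7), the stearoyl-CoA desaturase Scd2 (92.3 ± 11.6) and fatty acid synthase Fasn (87.5 ± 32.9). These 5 cannot be ordered, since each step between neighbours was smaller than their SDs. The next were Acly (76.9 ± 13.3), Idi1 (68.2 ± 13.8), the transcription factor gene Srebf2 (63.9 ± 7.78), Sqle (59.3 ± 6.82), Msmo1 (57.3 ± 5.78) and Hmgcs1 (47.1 ± 4.81). Of these steps, that from Msmo1 to Hmgcs1 alone was larger than the SDs of both neighbours. The lowest were Insig2 (7.5 ± 2.84), Tm7sf2 (4.37 ± 1.56) and Scd1 (0.73 ± 0.141). Scd2 was thus the stearoyl-CoA desaturase gene with the higher level in these cells, and its relatives Scd3 and Scd4 were listed at 0.36 to 1.71 and 0.23 to 0.46 FPKM over the 6 libraries. Srebf2, the form known mainly for sterol genes, had a higher con mean than Srebf1 (29.3 ± 6.70), the form known mainly for fatty acid genes, and the con values of the 2 genes do not overlap.

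**Figure D1:**
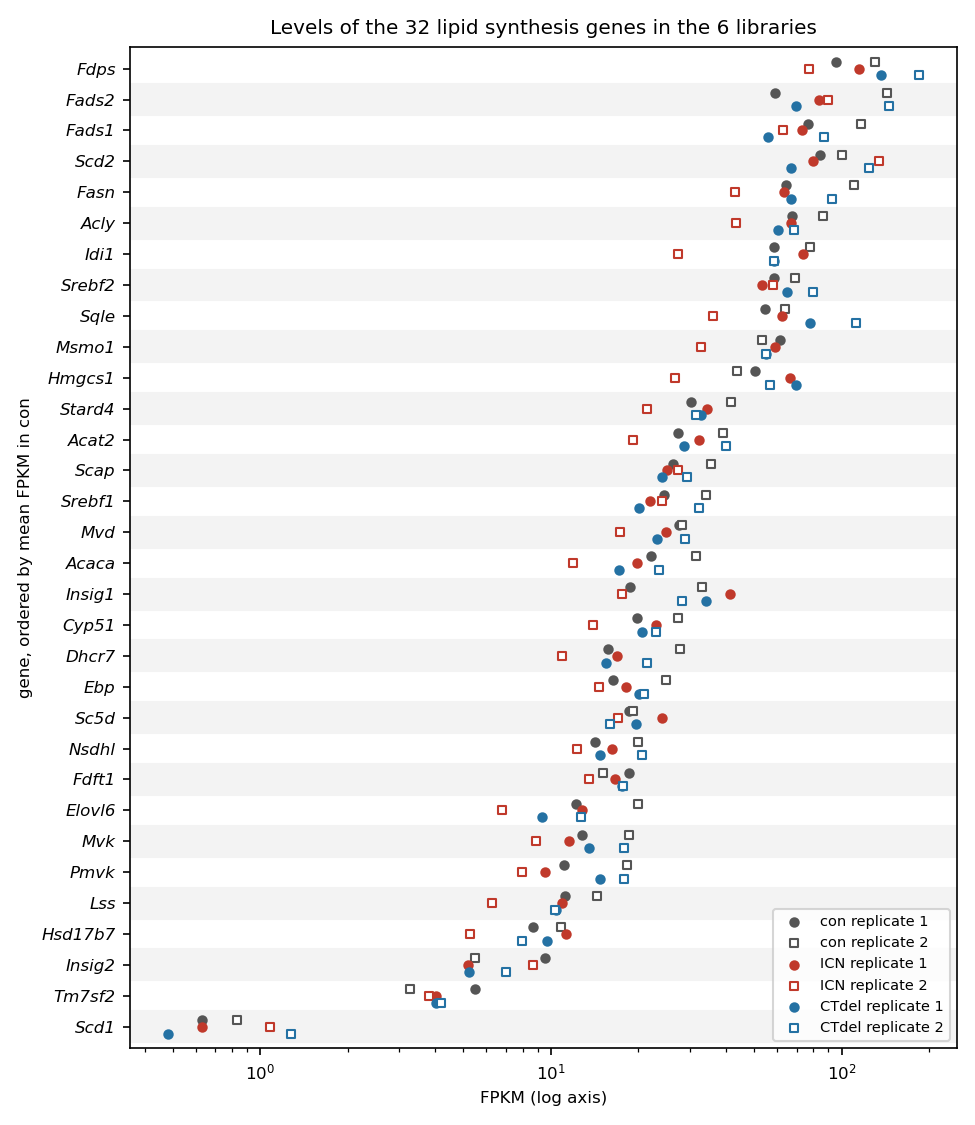
FPKM of each of the 32 genes (horizontal log axis) in the 6 libraries, with genes ordered by their mean in con; colours are groups, filled circles are replicate 1 and open squares replicate 2. Con means run from 0.73 FPKM for Scd1 to 113 for Fdps, and the open ICN square is the leftmost point of 22 genes.

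The con libraries themselves differed. Of the 32 genes, 27 (84.4%) were higher in con replicate 2 than in con replicate 1, against 46.8% of the genes tested. The count was 25 (78.1%) in CTdel, against 53.2%, and 7 (21.9%) in ICN, against 47.4%. Fads2, the delta-6 desaturase, measured 58.9 FPKM in con replicate 1 and 143 in con replicate 2, 2.43-fold apart and the widest con gap of the members. Dhcr7, the last reductase before cholesterol, measured 15.7 and 27.8, and Insig1 18.8 and 33.1. The erythroid and megakaryocyte markers were also higher in con replicate 2 by their sum (325 and 780.2 FPKM), mostly through Hba-a1, an alpha globin gene (118 and 578), and their part in these gaps was not tested. Since each number has its own table, gaps between tables may also come from how each was made.

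The first question was whether ICN cells differ from con cells in these genes. ICN replicate 2 had lower values than its con for 28 of the 32 genes (87.5%), where 48.4% of the genes tested were lower, and ICN replicate 1 for 16 (50%), where 48.0% were. The median difference of the members on the log2(FPKM + 1) scale was −0.01 in replicate 1 and −0.78 in replicate 2, against 0.02 and 0.02 over all genes tested. In replicate 2, 23 members (71.9%) were over 1.5 times lower on that scale, against 18.5% of genes, and in replicate 1 only Insig2 was (3.12%, against 6.41%). The 2 replicates went opposite ways for 18 members (56.2%, against 42.9% of genes). ICN was lower in both for 13 (40.6%, against 26.7%) and higher in both for 0 (against 29.8%), and lay below con without overlap for 10 (31.2%, against 19.6%).

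No member passed the test for ICN against con: 0 of 32 had an adjusted p under 0.05 in limma, beside 4 of 11050 genes called (0.0362%). At an unadjusted p under 0.05 the counts were 0 of 32 members and 1663 of the 11050 genes (15.0%). The smallest adjusted p of a member was 0.336, for Pmvk. The fitted changes were negative for 28 members and had a median of −0.32, against 0.00 over all genes. With ICN replicate 1 left out, 11 members passed, all of them lower (34.4%, against 4.74% of genes called lower): Acaca, Acat2, Acly, Dhcr7, Elovl6, Fads1, Fasn, Idi1, Lss, Mvk and Pmvk. Their adjusted p there ran from 0.0118 for Idi1 (change −1.38) to 0.0495 for Fads1 (−0.89). ICN is then the single library of replicate 2, whose spread is taken from the other groups. With ICN replicate 2 left out, 0 passed and the median change was 0.01.

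Of the mevalonate arm, all 6 genes were lower in ICN replicate 2 and 3 of 6 in replicate 1, with median differences of −0.86 and 0.06. Hmgcs1, which joins acetoacetyl-CoA and acetyl-CoA to HMG-CoA, measured 50.5, 66.7 and 69.6 FPKM in con, ICN and CTdel of replicate 1 and 43.7, 26.7 and 56.7 in those of replicate 2. ICN was above con in replicate 1 and below it in replicate 2, so the groups overlap and the fitted change was −0.15 (95% interval −0.92 to 0.63, adjusted p = 0.839). Idi1, the isomerase that sets isopentenyl and dimethylallyl diphosphate in balance, measured 58.4, 73.8 and 58.7 and then 77.98, 27.3 and 58.5 in the same order. Its ICN value in replicate 2 was 2.85-fold below con, and that in replicate 1 was above con. Idi1 had a fitted change of −0.57 (interval −1.65 to 0.50, adjusted p = 0.546). Fdps (chr3:89093588-89101967 on GRCm38.p6) measured 96.00, 115 and 137, then 131, 77.5 and 185, and had the same pattern in ICN, with a fitted change of −0.25 (adjusted p = 0.708).

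The kinases and the decarboxylase of the arm were lower in both ICN replicates, without overlap with con. Mevalonate kinase Mvk measured 12.8, 11.5 and 13.5 FPKM in con, ICN and CTdel of replicate 1 and 18.5, 8.89 and 17.8 in replicate 2. Phosphomevalonate kinase Pmvk (chr3:89454541-89469014) measured 11.1, 9.53 and 14.8, then 18.2, 7.94 and 17.9. For both genes the gap was small in replicate 1 and larger than that between the con libraries in replicate 2. The fitted changes were −0.56 for Mvk (adjusted p = 0.382) and −0.65 for Pmvk (interval −1.31 to 0.01, adjusted p = 0.336). Mvd, the decarboxylase that makes isopentenyl diphosphate, measured 27.5, 24.8 and 23.1, then 28.2, 17.3 and 28.9, with a fitted change of −0.41 (adjusted p = 0.469).

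In the squalene and sterol arm, 10 of 11 genes were lower in ICN replicate 2 and 4 in replicate 1 (medians −0.73 and 0.14). Sqle, the squalene epoxidase that is a control point of the pathway, measured 54.5, 62.6 and 78.1 FPKM in con, ICN and CTdel of replicate 1 and 64.1, 36.04 and 112 in those of replicate 2. ICN was above con in the first table and below it in the other. Sqle had a fitted ICN change of −0.31 (adjusted p = 0.675). Cyp51, the lanosterol demethylase, measured 19.8, 23.03 and 20.6, then 27.4, 13.9 and 23.1, and Dhcr7 15.7, 16.9 and 15.4, then 27.8, 10.9 and 21.4. Both have that same reversal; the fitted changes were −0.36 (adjusted p = 0.590) for Cyp51 and −0.59 (interval −1.45 to 0.28, adjusted p = 0.453) for Dhcr7. Hsd17b7, a sterol ketoreductase, also reversed, at 8.64 in con and 11.2 in ICN of replicate 1 and 10.8 and 5.28 in replicate 2. Nsdhl and Ebp, further enzymes that trim lanosterol, were also higher in replicate 1 and lower in replicate 2.

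Lss, the cyclase that closes squalene epoxide to lanosterol, measured 11.2, 10.9 and 10.4 FPKM in con, ICN and CTdel of replicate 1 and 14.4, 6.29 and 10.3 in those of replicate 2. It was lower than con in all 4 ICN and CTdel libraries. Fdft1, squalene synthase, and Msmo1, the methyl oxidase of the arm, were lower in both ICN replicates. For Msmo1 the values were 61.4, 58.8 and 54.8, then 53.2, 32.8 and 55.2, with a fitted ICN change of −0.37 (adjusted p = 0.517), and for Fdft1 the change was −0.15 (adjusted p = 0.736). Sc5d and Tm7sf2 stood apart from the rest of the arm. Sc5d, the lathosterol desaturase, was 18.6, 24.1 and 19.7, then 19.2, 16.99 and 15.9, and its ICN change of 0.09 (adjusted p = 0.855) was the only positive one of the 11. Tm7sf2, a sterol reductase, measured 5.47, 4.02 and 4.01, then 3.26, 3.79 and 4.18, and con replicate 2 was its lowest library. Some values may hold reads of neighbours, since the counting's use of strand is not stated. On GENCODE M21 (GRCm38) Fdft1 shares 774 bases with Ctsb on the other strand, Cyp51 166 with Akap9, Srebf1 109 with Rai1, and Tm7sf2 shares 532 with Vps51 on its own strand. The spans of predicted genes overlap more: Mvd shares 9822 bases with Gm20388 and Acaca 19126 with Gm11437 on the other strand, and Fdps 7512 with Gm43738 on its own. Gm11437 was at or under 0.05 FPKM in the libraries of replicate 2, and no values were found for the other two. Ctsb, a lysosomal protease, was at 51.0 and 36.5 FPKM in con and between 82.7 and 119 in the ICN and CTdel libraries.

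The genes that control the pathway did not share a pattern. Insig1, itself a known SREBP target, measured 18.8, 41.4 and 34.2 FPKM in con, ICN and CTdel of replicate 1 and 33.1, 17.5 and 28.1 in those of replicate 2. ICN was 2.2 times con in replicate 1, the only member over 1.5 times higher there, and 1.89-fold below con in replicate 2. Its fitted change was 0.11 with an interval from −1.0 to 1.23 (adjusted p = 0.919). Insig2, the other INSIG gene, was the mirror image at 9.51, 5.19 and 5.21, then 5.49, 8.66 and 7.0: lower than con in ICN and CTdel of replicate 1 and higher in those of replicate 2. Its change was −0.09 (adjusted p = 0.910). Srebf1, Srebf2 and Scap were lower in both ICN replicates by small amounts. Srebf1 measured 24.6, 21.9 and 20.02, then 34.04, 24.02 and 32.2, and Srebf2 58.4, 53.4 and 65.1, then 69.4, 57.99 and 79.8. Their fitted changes were −0.32 (adjusted p = 0.505) and −0.19 (interval −0.67 to 0.29, adjusted p = 0.644), and that of Scap was −0.22 (adjusted p = 0.608). None of these 3 was over 1.5 times lower in ICN replicate 2.

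Stard4, which carries sterol between membranes, and Acat2, the cytosolic thiolase that makes acetoacetyl-CoA, were higher than con in ICN replicate 1 and lower in replicate 2. Stard4 measured 30.4 in con and 34.4 in ICN of replicate 1, and 41.5 and 21.5 in replicate 2. Acat2 measured 27.5, 32.3 and 28.7 in con, ICN and CTdel of replicate 1, then 39.2, 19.2 and 40.1. ICN replicate 2 was the lowest library of both genes. The fitted changes were −0.37 (adjusted p = 0.565) and −0.38 (adjusted p = 0.606). Acat3, a close relative of Acat2, was listed at 0.34 to 0.75 FPKM.

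All 3 enzymes of fatty acid synthesis were lower in both ICN replicates and did not overlap con, by a median of −0.02 in replicate 1 and −1.34 in replicate 2. Fasn (chr11:120805958-120825166) measured 64.2, 63.4 and 67.1 FPKM in con, ICN and CTdel of replicate 1 and 111, 43.01 and 93.01 in those of replicate 2. Replicate 1 hardly differed between groups, and in replicate 2 ICN was 2.57-fold below con. Acaca, acetyl-CoA carboxylase 1 (chr11:84129635-84401651), measured 22.2, 19.9 and 17.1, then 31.6, 11.9 and 23.6, with ICN 2.65-fold below con in replicate 2. Acly, which makes cytosolic acetyl-CoA from citrate, measured 67.5, 66.9 and 60.3, then 86.3, 43.2 and 68.7. The fitted changes were −0.68 for Fasn (interval −1.53 to 0.17, adjusted p = 0.399), −0.74 for Acaca (interval −1.57 to 0.09, adjusted p = 0.364) and −0.50 for Acly (adjusted p = 0.440). These intervals take in both no change and a fall of over 1 on the log2 scale for Fasn and Acaca.

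The desaturases and the elongase split. Elovl6, which extends palmitate to stearate, measured 12.2, 12.8 and 9.29 FPKM in con, ICN and CTdel of replicate 1 and 20.01, 6.78 and 12.7 in those of replicate 2. Its ICN value was 2.95-fold below con in replicate 2, the widest such gap of the members, with a fitted change of −0.68 (adjusted p = 0.431). Fads1, the delta-5 desaturase, measured 76.4, 73.1 and 55.9, then 117, 62.7 and 87.2, and was below con in all 4 ICN and CTdel libraries. Fads2 measured 58.9, 83.4 and 69.8, then 143, 89.8 and 145: con replicate 1 was its lowest library, and ICN replicate 2 was 1.59-fold below con. Scd2, at 84.04, 79.6 and 66.8, then 100.5, 135 and 125, went the other way from most members, with ICN replicate 2 its highest library. Scd2 had a change of 0.17 (adjusted p = 0.737). Scd1 stayed between 0.48 and 1.27 FPKM in all libraries.

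**Figure D2:**
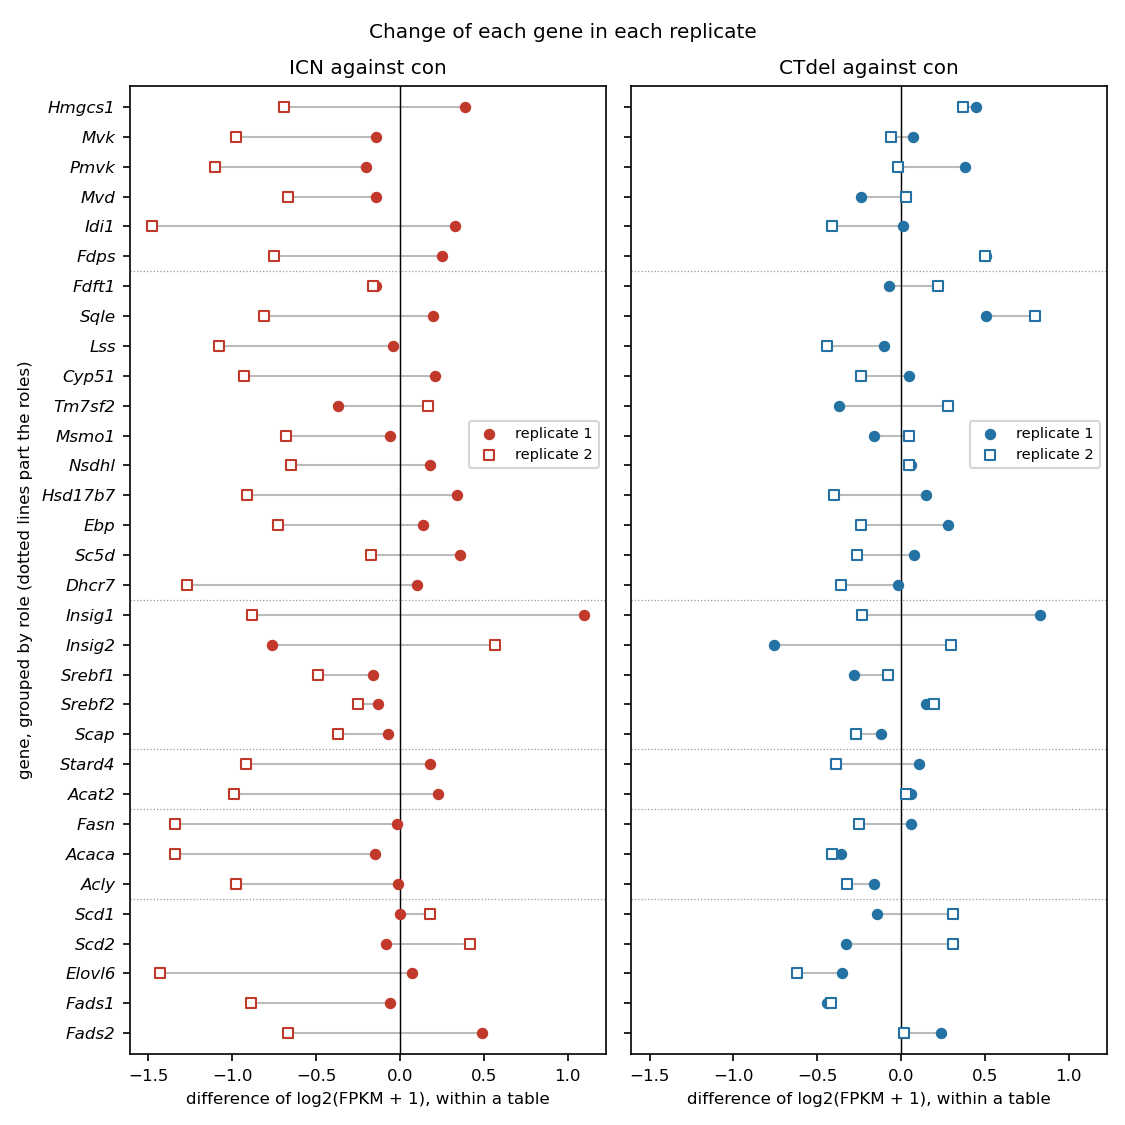
Difference of log2(FPKM + 1) from the con library of the same table for each gene (horizontal axis), for ICN on the left and CTdel on the right; filled circles are replicate 1, open squares replicate 2, and dotted lines part the roles. The ICN squares lie below 0 for 28 of 32 genes and the ICN circles for 16, while in CTdel the counts are 18 and 15.

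The CTdel cells asked the same question of the mutant. No member passed for CTdel against con (0 of 32 at an adjusted p under 0.05 in limma), where 156 of 11050 genes did (1.41%). At an unadjusted p under 0.05 the counts were 0 of 32 and 1302 of 11050 (11.8%). The median change was −0.07, against −0.06 over all genes tested, with 0.03 in replicate 1, where 15 members were lower (46.9%, against 57.0% of genes), and −0.07 in replicate 2, where 18 were (56.2%, against 52.3%). CTdel was lower than con in both replicates for 8 members (25.0%, against 35.8% of genes), higher in both for 7 (21.9%, against 26.2%) and opposite for 17 (53.1%, against 37.3%). The groups did not overlap for 4 members: 3 above con (9.38%, against 18.3%) and 1 below (3.12%, against 23.5%). The sign of the median rests on single libraries, which moved it to −0.25 (con replicate 1 left out), 0.22 (con replicate 2), 0.12 (CTdel replicate 1) and −0.20 (CTdel replicate 2).

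The 3 members above con without overlap were Sqle, Fdps and Hmgcs1, whose values stand above. For Sqle both CTdel values were over both con values, and CTdel replicate 2 was the highest of the 6 libraries. Sqle (chr15:59315092-59331193) had a fitted change of 0.65 ± 0.34 (SE; interval −0.19 to 1.49, adjusted p = 0.575), the smallest adjusted p of the members in this comparison. Fdps had 0.50 ± 0.30 (SE; interval −0.25 to 1.25, adjusted p = 0.636), with differences of 0.51 and 0.50 in the 2 replicates, and Hmgcs1 had 0.41 ± 0.31 (SE; adjusted p = 0.714), with 0.45 and 0.37. Sqle differed by 0.51 and 0.80. All 3 were thus higher in both replicates, yet the fit, which pools the spread of all 3 groups, left their intervals open to no change. Nsdhl, Srebf2, Acat2 and Fads2 were higher in both replicates too, by fitted changes between 0.05 and 0.18.

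Lss was the member below con without overlap, with a fitted CTdel change of −0.27 (adjusted p = 0.817). Acaca (−0.38, adjusted p = 0.762), Acly (−0.24, adjusted p = 0.835), Elovl6 (−0.49, adjusted p = 0.727) and Fads1 (−0.43, interval −1.11 to 0.25, adjusted p = 0.657) were lower than the con of their own table in both replicates, as were Dhcr7, Srebf1 and Scap. The 3 fatty acid synthesis enzymes had median CTdel differences of −0.16 in replicate 1 and −0.32 in replicate 2, and the mevalonate arm 0.23 and 0.01. The 5 desaturation and elongation genes were mixed, with medians of −0.33 and 0.02 and a median fitted change of −0.01: Fads2 was above con in both replicates, and the fitted changes of Scd1 and Scd2 were 0.09 and −0.01. No difference between arms was tested. Fasn differed little from con (−0.09, adjusted p = 0.957), and Insig1 was above con in replicate 1 and below it in replicate 2 (0.30, adjusted p = 0.869).

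**Figure D3:**
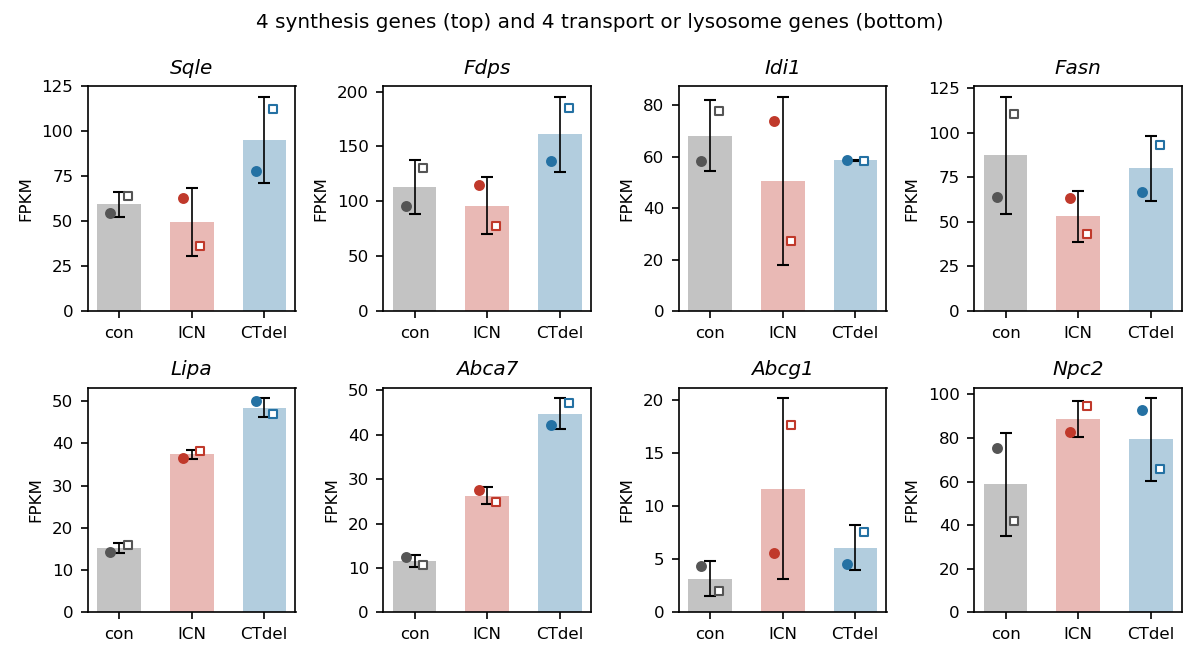
FPKM of 8 genes in each group: bars are means, error bars are SD over 2 libraries, filled circles are replicate 1 and open squares replicate 2. In the upper row both CTdel points of Sqle (78.1 and 112) and Fdps (137 and 185) are above both con points and the ICN points of replicate 2 are low, while in the lower row Lipa and Abca7 are higher in all 4 ICN and CTdel libraries than in con.

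Set directly against ICN, CTdel had higher values in replicate 2 for 29 of 32 members (90.6%, against 49.5% of genes) and in replicate 1 for 10 (31.2%, against 35.9%). No member passed (0 of 32, beside 2 of 11050 genes, 0.0181%), and 3 of 32 (9.38%) had an unadjusted p under 0.05, near the 788 of 11050 genes that did (7.13%). These were Pmvk, with a difference of 0.83 (interval 0.17 to 1.49, adjusted p = 0.658), Sqle, with 0.96 (interval 0.12 to 1.80, adjusted p = 0.665), and Fdps, with 0.75 (interval 0.00 to 1.5, adjusted p = 0.700). The median was 0.28, against −0.04 over all genes, and was −0.11 in replicate 1 and 0.67 in replicate 2. CTdel lay above ICN in both replicates for 9 members (28.1%, against 24.0%), namely Hmgcs1, Mvk, Pmvk, Fdps, Fdft1, Sqle, Ebp, Srebf2 and Fasn. All of these but Hmgcs1 did so without overlap (8 members, 25.0%, against 15.6%). Without ICN replicate 1, 7 members passed as higher in CTdel (21.9%, against 3.13% of genes called higher): Acat2, Fasn, Fdps, Hmgcs1, Idi1, Pmvk and Sqle, with the smallest adjusted p, 0.00949, for Sqle (difference 1.54).

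For both forms against con, 0 of 32 members passed, beside 123 of 11050 genes (1.11%), and 0 had an unadjusted p under 0.05, where 1707 of 11050 genes did (15.4%). The median change of the members was −0.21, against −0.03 over all genes, and the smallest adjusted p was 0.429, for Acaca, whose change was −0.56. Without ICN replicate 1, Acaca, Elovl6 and Idi1 passed as lower (9.38%, against 3.48% of genes called lower).

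The values were also put in order over the 6 libraries. ICN replicate 2 was the lowest of the 6 libraries for 22 members (68.8%, against 26.0% of genes), and con replicate 2 the highest for 15 (46.9%, against 24.9%). CTdel replicate 2 was the highest for 8 (25.0%, against 12.1%): Acat2, Fads2, Fdps, Mvd, Nsdhl, Scd1, Sqle and Srebf2. Most members had similar profiles. Over the 6 libraries, centred within a table, Pearson's r of a gene with the mean of the 32 (which holds that gene too) was 0.99 for Acat2 and Fasn, 0.98 for Cyp51, Dhcr7 and Nsdhl and 0.97 for Idi1 and Msmo1. It was 0.66 for Insig1, 0.22 for Sc5d, −0.14 for Scd1, −0.15 for Tm7sf2, −0.53 for Insig2 and −0.58 for Scd2. These are descriptions with no test, and the points share tables, with ICN replicate 2 as their extreme.

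Other genes had the same profile. The 4 outside the members that were nearest to their mean over the 6 centred libraries were Trim44 (r = 0.998), Mpp6 (0.998), Rhd (0.997) and Mrgbp (0.996), and 316 of 11018 genes compared had an r over 0.95. Mpp6 measured 54.3, 60.1 and 57.7 FPKM in con, ICN and CTdel of replicate 1 and 61.9, 28.4 and 59.0 in those of replicate 2. Mrgbp measured 21.0, 21.5 and 21.2, then 24.1, 20.1 and 24.0, a smaller drop, since r does not weigh the size of a change. The shape of the profile, with a low ICN replicate 2, is thus shared by genes outside the 32.

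Further readouts differed in the same library. A list of 14 interferon response genes summed to 475 and 173 FPKM in con, 1400 and 3999 in ICN and 1318 and 1345 in CTdel. A list of 12 cell cycle genes summed to 1065 and 1584 in con, 1210 and 819 in ICN and 1194 and 1549 in CTdel, with median differences of −0.23 and −0.92 for ICN and −0.02 and 0.06 for CTdel. ICN replicate 2 thus held the highest interferon sum, the lowest cell cycle sum, the lowest sum of the 32 lipid genes and the highest Notch1 of the 6 libraries. The part of any of these in the lipid gene values was not tested.

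The enzymes of the pathway outside the 32 can be set beside them. Of 14 further sterol and isoprenoid genes 12 were tested and 0 passed in any comparison, with median changes of −0.23 in ICN and −0.21 in CTdel. The 3 named by the smallest p were Acat1, Lbr and Pdss2. Acat1, the mitochondrial thiolase, measured 28.99, 21.4 and 22.4 FPKM in con, ICN and CTdel of replicate 1 and 36.5, 11.9 and 22.6 in those of replicate 2, and was lower in all 4 ICN and CTdel libraries (ICN −0.98, adjusted p = 0.266). Lbr, a sterol reductase of the nuclear envelope, measured 89.4, 61.7 and 53.6, then 92.3, 37.96 and 71.5, again lower in all 4 (ICN −0.89, adjusted p = 0.283). With ICN replicate 1 left out, the ICN changes, which then rest on 1 ICN library, were −1.46 for Acat1 and −1.35 for Lbr. Pdss2, of ubiquinone side chain synthesis, had an ICN change of −0.23 (adjusted p = 0.608) and a CTdel change of −0.40 (adjusted p = 0.571).

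Among 14 genes of cholesterol uptake, storage and trafficking 1 rose in CTdel and 13 did not pass, where 1.41% of all genes tested passed. Lipa, the lysosomal acid lipase that frees cholesterol from its esters, measured 14.3, 36.6 and 50.04 FPKM in con, ICN and CTdel of replicate 1 and 16.1, 38.2 and 46.9 in those of replicate 2. All 4 ICN and CTdel values were over both con values, and CTdel was above ICN in both tables. Lipa rose by 1.61 in CTdel (adjusted p = 0.0275) and by 1.43 in both forms together (adjusted p = 0.0336), and had 1.25 in ICN (adjusted p = 0.123). The CTdel call was lost without con replicate 1 (adjusted p = 0.0786), con replicate 2 (0.0582), CTdel replicate 1 (0.237) or CTdel replicate 2 (0.137), and with no filter on low values (0.126), with changes between 1.51 and 1.71. The call for both forms was lost without con replicate 1 (adjusted p = 0.0876), con replicate 2 (0.0823) or CTdel replicate 1 (0.0661), and with no filter (0.161). Stard3, a late endosome sterol carrier, measured 11.2, 19.1 and 22.9, then 14.01, 25.9 and 27.2, and had 0.94 in CTdel (adjusted p = 0.112). Gramd1b, another sterol carrier, had 0.61 in ICN (adjusted p = 0.280). Lrp8, a lipoprotein receptor, went the other way, at 15.7, 12.1 and 12.2, then 22.9, 5.49 and 10.99 (ICN −1.12, adjusted p = 0.281). With ICN replicate 1 left out, the ICN changes were 1.26 for Lipa and −1.72 for Lrp8. The CTdel change of Stard3 stayed at 0.94 with either ICN library left out.

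Among 8 genes of the LXR oxysterol receptors and cholesterol export 7 were tested, of which 1 rose in CTdel, where 1.41% of all genes passed. Abca7, an ABC transporter of lipids, measured 12.5, 27.6 and 42.3 FPKM in con, ICN and CTdel of replicate 1 and 10.7, 24.9 and 47.2 in those of replicate 2. The groups do not overlap and stand in the order con, ICN, CTdel in both tables. Abca7 rose by 1.86 in CTdel (adjusted p = 0.0261) and by 1.49 in both forms (adjusted p = 0.0336), and had 1.12 in ICN (adjusted p = 0.153). Its CTdel call was lost without con replicate 2 (adjusted p = 0.0581), CTdel replicate 1 (0.0647) or CTdel replicate 2 (0.137), and with no filter (0.133), with changes between 1.69 and 2.03. That for both forms was lost without con replicate 1 (adjusted p = 0.0628) or con replicate 2 (0.107), and with no filter (0.161). Abca1 and Abcg1, the best known LXR targets, were highest in ICN replicate 2. Abcg1 measured 4.33, 5.63 and 4.6, then 2.05, 17.7 and 7.61 (ICN 1.46, adjusted p = 0.302), and Abca1 0.94, 1.0 and 1.13, then 0.71, 5.31 and 2.75 (ICN 0.96, adjusted p = 0.369). With ICN replicate 1 left out, the ICN changes were 2.26 for Abcg1, 1.63 for Abca1 and 1.06 for Abca7. Lpcat3, a phospholipid acyltransferase, was lower in all 4 ICN and CTdel libraries, at 45.5, 35.1 and 30.9, then 51.2, 34.9 and 33.6 (CTdel −0.57, adjusted p = 0.329). Of 4 oxysterol enzymes, Ch25h and Cyp27a1 stayed under an FPKM of 1, and no row was found for Cyp7b1 or Cyp46a1. The myeloid marker sums given above are also in the order con, ICN, CTdel of Lipa and Abca7 in both tables; their part in those changes was not tested.

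Of 10 genes of SREBP processing and sterol sensing all 10 were tested and 0 passed, with median changes of 0.03 in ICN and −0.11 in CTdel. Mbtps2, the site-2 protease that frees SREBP, measured 13.1, 7.92 and 7.43 FPKM in con, ICN and CTdel of replicate 1 and 9.29, 5.78 and 7.89 in those of replicate 2, lower in all 4 ICN and CTdel libraries (ICN −0.63, adjusted p = 0.307). Sec24a, of the vesicle coat that SCAP uses, had 0.29 in ICN (adjusted p = 0.560). Of 15 genes of fatty acid supply and elongation 12 were tested and 0 passed, with medians of −0.31 in ICN and −0.23 in CTdel. Acsl3, an acyl-CoA synthetase, measured 10.3, 7.51 and 6.11, then 11.3, 4.18 and 7.55 (ICN −0.83, adjusted p = 0.299, and a change of −1.29 without ICN replicate 1). Tecr, the last reductase of elongation, had −0.49 in ICN (adjusted p = 0.366), and Mid1ip1, which helps acetyl-CoA carboxylase assemble, −0.54 (adjusted p = 0.384).

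**Figure D4:**
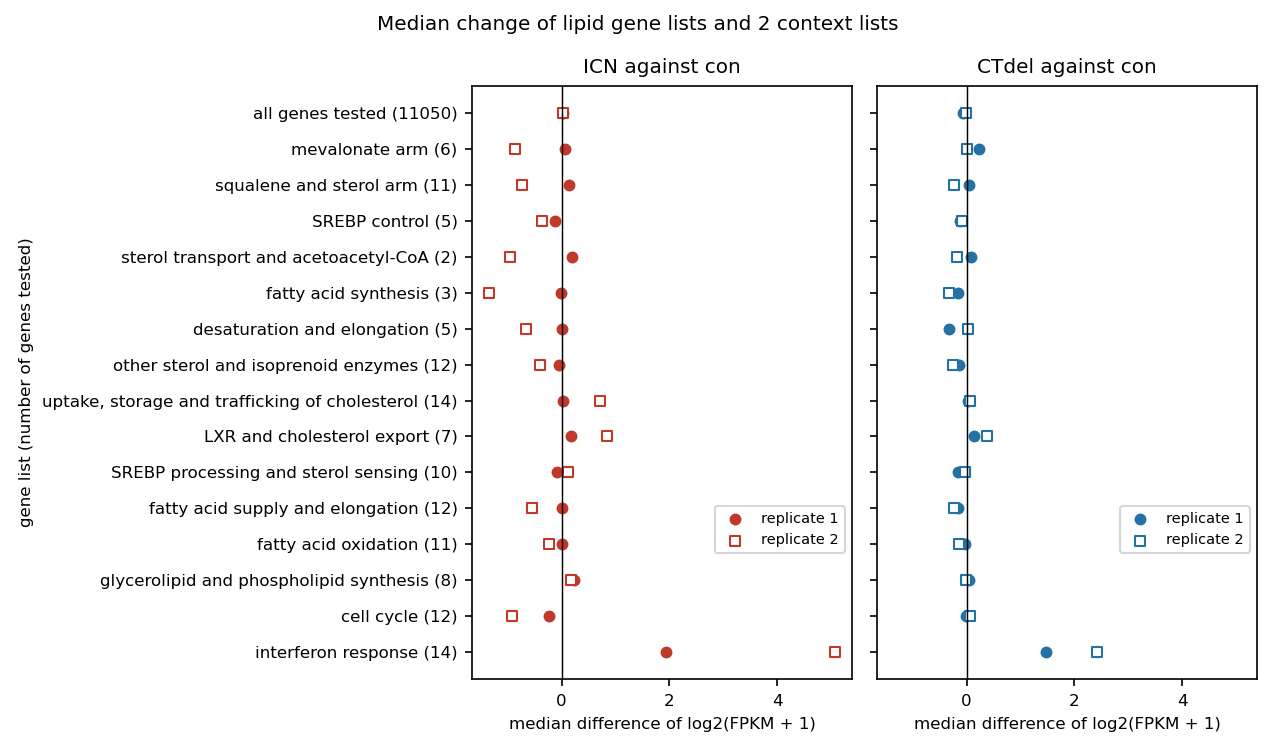
Median difference of log2(FPKM + 1) from con in each replicate (horizontal axis) for all genes tested, the 6 roles of the members, the other lipid lists and 2 context lists, with the number of genes tested in brackets; filled circles are replicate 1 and open squares replicate 2. In ICN replicate 2 the mevalonate arm (−0.86) and fatty acid synthesis (−1.34) lie left of 0, and the 2 cholesterol handling lists right of it (0.71 and 0.85). In replicate 1 these 4 lie between −0.02 and 0.17. Glycerolipid and phospholipid synthesis lies right of 0 in both ICN replicates (0.23 and 0.17).

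By their medians, the mevalonate and sterol arms and the cholesterol handling lists thus lay on opposite sides of con in ICN replicate 2. The median differences there were −0.86 for the mevalonate arm and −0.73 for the sterol arm, against 0.71 for uptake, storage and trafficking and 0.85 for LXR and export. In replicate 1 the same 4 medians were 0.06, 0.14, 0.02 and 0.17. In CTdel they were 0.01, −0.24, 0.07 and 0.37 in replicate 2 and 0.23, 0.05, 0.03 and 0.13 in replicate 1. No list was tested as a whole.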

How the data were processed

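Messenger RNA libraries from 6 BaF3 samples (con, ICN and CTdel, replicates 1 and 2) were prepared, per the labels' protocols, with an MGIEasy kit. HISAT2, Bowtie2 and RSEM appear in the submitters' processing notes without versions or roles, next to the builds mm10 and hg19. The authors deposited FPKM per gene, per the file headers, in 1 table for each replicate number (17877 and 17868 genes, 16799 in both). Dates stood in place of 26 symbols, which were restored from their NCBI Gene IDs. The tables held 341 and 0 genes at 0 in all their libraries, so genes at 0 throughout were listed in the first alone. No counting intervals were computed, since FPKM hold no read totals. Relative depth was read from small RNA genes of up to 100 bases, at 33 lengths, as the step of the lowest values.

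Members were found by symbol and changes were taken within a table. The test was limma 3.58.1 (R 4.3.3) on log2(FPKM + 1) (2-sided, trended prior, the table as a term, all 6 libraries), with Benjamini-Hochberg adjustment over the 11050 genes of both tables that reached an FPKM of 1 in 2 or more libraries, and a threshold of 0.05. The fit had 2 residual degrees of freedom and a median prior of 3.82, and was tested on simulated data. A change on this scale understates that of low genes. Gene coordinates and promoters come from RefSeq for GRCm38.p6, the assembly that mm10 names. Named were all members, Notch1, and of each further lipid list the genes that passed and up to 3 others with the smallest p against con; some genes of these lists are not reported here. The members and lists were chosen with earlier results of these data known. Alternatives covered the table term, pseudocount, filter, scaling, spread, libraries fitted and each library left out.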

Additional observations from a re-analysis of the deposited data

How the results depend on the processing

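For the members, 0 of 32 passed in each comparison under every alternative run except leaving out ICN replicate 1 (0 of 30 with the stricter filter, which left Scd1 and Tm7sf2 untested), so the leave-one-out counts ran from 0 to 11 for ICN against con, 0 to 7 for CTdel against ICN and 0 to 3 for both forms, and were 0 throughout for CTdel against con. Leaving out 1 library moved the median change of the members between −0.74 and 0.01 (ICN), −0.25 and 0.22 (CTdel), −0.09 and 0.70 (CTdel against ICN) and −0.40 and 0.02 (both forms). Of the single values of members under all alternatives, 1585 kept both their direction and their side of the threshold. A further 146 changed direction without passing, and the rest crossed the threshold. Of those of other named genes, 1231 kept both, 24 changed direction without passing, and the rest crossed the threshold in either sense.

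The number of genes called (4, 156, 2 and 123 for ICN, CTdel, CTdel against ICN and both forms) was 0 in all 4 with no filter on low values. With only the groups compared in the fit it was 162 for ICN and 730 for CTdel; this was not run for both forms, which use all groups. With a pseudocount of 0.1 it was 0 for CTdel against ICN, and with the stricter filter (mean FPKM of at least 5) it was 1. Leaving out 1 library gave 11 to 1470 genes for ICN, 109 to 731 for CTdel, 2 to 891 for CTdel against ICN and 48 to 1240 for both forms. A group left with 1 library is assumed to vary like the others, and the cause of these shifts was not tested.

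Replicate numbers were checked as pairs: the deviations of same-numbered libraries correlated at −0.099 (con and ICN), 0.326 (con and CTdel) and 0.236 (ICN and CTdel) over 11050 genes. These values cannot show whether such libraries shared more than a number and a table. With no replicate block the counts were 3, 130, 2 and 132 genes, and 0 members in each comparison. Read totals are unknown, which leaves the precision of Scd1 and other low values unknown.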

Other observations

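Genes of glycerolipid and phospholipid synthesis, which use the fatty acids that the pathway makes, were split in ICN. Of 10 listed, 8 were tested, of which 4 had a positive and 4 a negative ICN change, and 0 passed in any comparison, with 3 of the 8 at an unadjusted p under 0.05 in ICN, where 15.0% of all genes tested were. Chka, choline kinase alpha, measured 19.3, 37.4 and 33.8 FPKM in con, ICN and CTdel of replicate 1 and 21.5, 72.3 and 22.3 in those of replicate 2 (ICN 1.31, adjusted p = 0.238, limma). All 4 ICN and CTdel values were over their con, and ICN replicate 2 was the highest library. Pcyt1a, which makes CDP-choline in the same route, measured 15.1, 19.96 and 18.5, then 11.8, 35.7 and 15.96 (ICN 0.95, adjusted p = 0.285). Lpin1, a phosphatidate phosphatase, measured 10.96, 13.1 and 12.2, then 5.36, 39.6 and 10.6 (ICN 1.46, adjusted p = 0.320). With ICN replicate 1 left out, ICN is the single library of replicate 2, and the changes were 1.88 for Chka, 1.49 for Pcyt1a and 2.49 for Lpin1. Pcyt2, of the ethanolamine route, was lower in ICN replicate 2 than in con (17.4 and 31.3 FPKM), as was Gpam, the first acyltransferase of glycerolipids (8.22 and 14.1). Pcyt2 and Gpam were named after their values were seen.

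Fatty acid oxidation genes lay near con by their median, with 11 of 12 tested, 0 called and medians of −0.10 in ICN and −0.08 in CTdel. Etfdh, which passes electrons from fatty acid oxidation to ubiquinone, measured 15.1, 19.6 and 20.98 FPKM in con, ICN and CTdel of replicate 1 and 17.1, 35.5 and 23.4 in those of replicate 2. It was above con in all 4 ICN and CTdel libraries and highest in ICN replicate 2 (ICN 0.69, adjusted p = 0.306, and a change of 1.02 without ICN replicate 1). Slc25a20, the carnitine carrier, was also above con in all 4 (ICN 0.38, adjusted p = 0.417), and Acadl, a long-chain dehydrogenase, was below con in all 4 (ICN −0.42, adjusted p = 0.431). Ppara, the receptor known to drive these genes in liver, stayed at or under 0.01 FPKM. Npc2, a lysosomal sterol carrier named after its values were seen, measured 75.4, 82.9 and 92.7, then 41.9, 94.7 and 65.96 (ICN 0.65, adjusted p = 0.358).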
